A study of Mus musculus with 16 samples.

Results

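Dppa2, Dppa3, Dppa4 and Dppa5a are 4 mouse genes that share the name "developmental pluripotency associated", and their messenger RNA was followed here in primordial germ cells, the embryonic precursors of sperm and eggs. The members were the rows with these 4 symbols, out of 26219 gene rows in each of 2 expression tables. Both tables come from 3′ RNA sequencing, which reads the ends of polyadenylated transcripts, and give levels in RPM, the reads of a gene scaled to a fixed library total. The first table, called floxed below, holds C57BL/6 germ cells of E11.5, where E stands for embryonic day, whose genotype includes Prdm1(flox/flox); Rosa26(neo-EYFP/+). It has 4 control libraries, whose genotype lists no transgene, and 4 libraries labelled CKO (conditional knockout), which also carry the transgene Dppa3-MCMP(Tg/0). All floxed litters, controls included, were exposed to 4-hydroxytamoxifen, given to the mothers at 3 mg per 25 g of body weight at E10.5. The second table holds Dppa3(EGFP/+) germ cells of a mixed ICR and C57BL/6 background, whose genotype lists no floxed Prdm1, called wild type below. It has 2 libraries each from E10.5, E11.5, E13.5 males and E13.5 females.

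The 4 genes are grouped by their name and their expression in pluripotent and germ cells, and not all of them are related in sequence. DPPA3, also known as Stella or PGC7, is a classic marker of primordial germ cells and a maternal factor of the egg. It binds UHRF1, the protein that brings the maintenance methyltransferase DNMT1 to replicated DNA, and limits its work. DPPA2 and DPPA4 are SAP-domain proteins that bind DNA as a pair at CpG-rich promoters. In embryonic stem cells they are needed for the expression of Dux and Zscan4, genes of the early embryo at the first cleavage. DPPA5A, also called ESG1, is a KH-domain RNA-binding protein whose relatives include OOEP and KHDC3 of the maternal complex of the egg. The germ cells studied here span the time at which DNA methylation is lost and at which male and female cells take separate courses.

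On the GRCm38.p6 assembly the Dppa2 and Dppa4 genes are close neighbours on chromosome 16, both on the plus strand. Dppa4 (Entrez gene 73693) runs from 48283735 to 48294292 and has 7 exons in its longest coding GENCODE transcript. Dppa2 (Entrez gene 73703) runs from 48310274 to 48319513, has 8 exons, and begins 15981 bases after the end of Dppa4. Dppa3 (Entrez gene 73708) lies on chromosome 6 from 122626424 to 122630271 on the plus strand, with 4 exons. Dppa5a (Entrez gene 434423) lies on chromosome 9 from 78367052 to 78368199 on the minus strand, with 3 exons.

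All 4 genes were detected in all 16 libraries and all 4 passed the filter on low values in both tables, at 5 RPM in at least 4 floxed or at least 2 wild-type libraries. The filter left 9384 genes in the floxed table and 10749 in the wild-type table. Depth, recovered from the step that 1 read makes in RPM, was 2798000 to 5032000 reads in the floxed libraries and 1485000 to 4783000 in the wild-type libraries. Dppa2 rested on the fewest reads, 100 to 265 per library, so that its 95% Poisson counting interval reached up to 21.6% from the value. Dppa4 rested on 547 to 2078 reads, Dppa5a on 3035 to 15116 and Dppa3 on 4670 to 19167. The widest counting intervals of these genes reached 8.74%, 3.62% and 2.91%, and the intervals cover counting error only. Nothing in the labels says that replicates came from separate litters or embryos, so p-values measure only the spread between these libraries, which may be technical. In such bulk samples fewer cells of a type and less RNA per cell cannot be told apart.

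The labelled cell type was checked first: all 10 primordial germ cell markers listed were detected in every group, with a summed level of 1431 to 3449 RPM. Prdm1, the gene targeted in the CKO, was not lower in the libraries so labelled: it read 50.7 to 73.0 RPM in the control group against 76.6 to 89.4 RPM under the CKO label. A 3′ read can lie outside the deleted segment and then checks nothing. These 4 libraries are therefore called CKO-labelled throughout. Summed gonadal somatic and mesenchymal markers (9 to 10 of 10 detected) ranged from 12.4 to 67.4 RPM over the controls, and from 9.47 to 226 RPM over the CKO-labelled group, with the highest value in CKO replicate 4. Control replicate 1 and CKO replicate 4 correlated least with their own groups, at 0.965 and 0.964 across genes. Erythroid markers summed to 213 to 224 RPM for E10.5 and to at most 32.6 RPM in the later wild-type groups, and gonadal somatic and mesenchymal markers to 52.8 to 60.2 RPM for E10.5 (10 of 10 detected) against 4.56 to 5.39 RPM for E11.5 (3 of 10, with Nr5a1, Lhx9 and Col1a2 at 0). At E13.5 the latter summed to 15.8 to 16.0 RPM in males (7 of 10 detected) and 5.76 to 6.27 RPM in females (4 of 10). Endothelial markers summed to 150 to 153 RPM for E10.5 and 118 to 129 RPM for E11.5 (4 of 5 detected in each). At E13.5 they summed to 68.3 to 68.5 RPM in males (3 of 5) and 118 to 125 RPM in females (2 of 5, with Kdr at 0). Cdh5 was at or near 0 in all groups. The germ cell markers themselves summed to 3267 to 3449 RPM for E10.5, 2669 to 2715 RPM for E11.5, 1495 to 1554 RPM in males and 1431 to 1498 RPM in females. The part of these differences in the stage and sex comparisons below was not tested.

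2 features of the genes limit what their rows can show. Dppa3 names both the EGFP allele of the wild-type cells and the transgene of the CKO-labelled cells, and the labels do not say which of its transcribed bases either construct holds. Reads of the gene and of a construct therefore cannot be told apart, and the same holds for any choice of cells by a Dppa3 reporter. The protocol names sorts by EYFP and by an SSEA-1 antibody, with no group tied to either, and whether controls and CKO-labelled cells were sorted alike is not stated. The second limit is copies: a search of the last 500 transcript bases against GENCODE transcripts, for at least 90% identity over at least 100 bases, found none for Dppa2 or Dppa4. It found 3 for Dppa3 and 9 for Dppa5a. The closest for Dppa3 was the pseudogene Dppa3-ps, with 98.7% identity over 233 bases, and none of the 3 has a row of its own. Among the copies of Dppa5a are the pseudogenes Dppa5b and Dppa5c, at 96.5% over 258 bases. The coding gene Pigp counts among them only for a stretch of 417 bases at 95.9%. Pigp is the only one of the 9 with a row. The values of Dppa3 and Dppa5a are uncertain to the extent that reads were shared with these copies.

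In wild-type germ cells Dppa3 in E13.5 males stood at 1.97-fold its E11.5 mean. In E13.5 females Dppa3 stood below E11.5, at 0.394 of the male mean. It read 2718 and 2824 RPM for E10.5, 3145 and 3227 RPM for E11.5, 6401 and 6164 RPM in E13.5 males, and 2567 and 2389.7 RPM in E13.5 females. No 2 of these 4 groups overlapped, and the order was males, E11.5, E10.5 and females. Such separation is common in groups of 2 libraries: among all tested genes 46.2% did not overlap between E10.5 and E11.5, 66.2% between E11.5 and males, 74.9% between E11.5 and females, and 71.1% between the sexes.

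**Figure D1:**
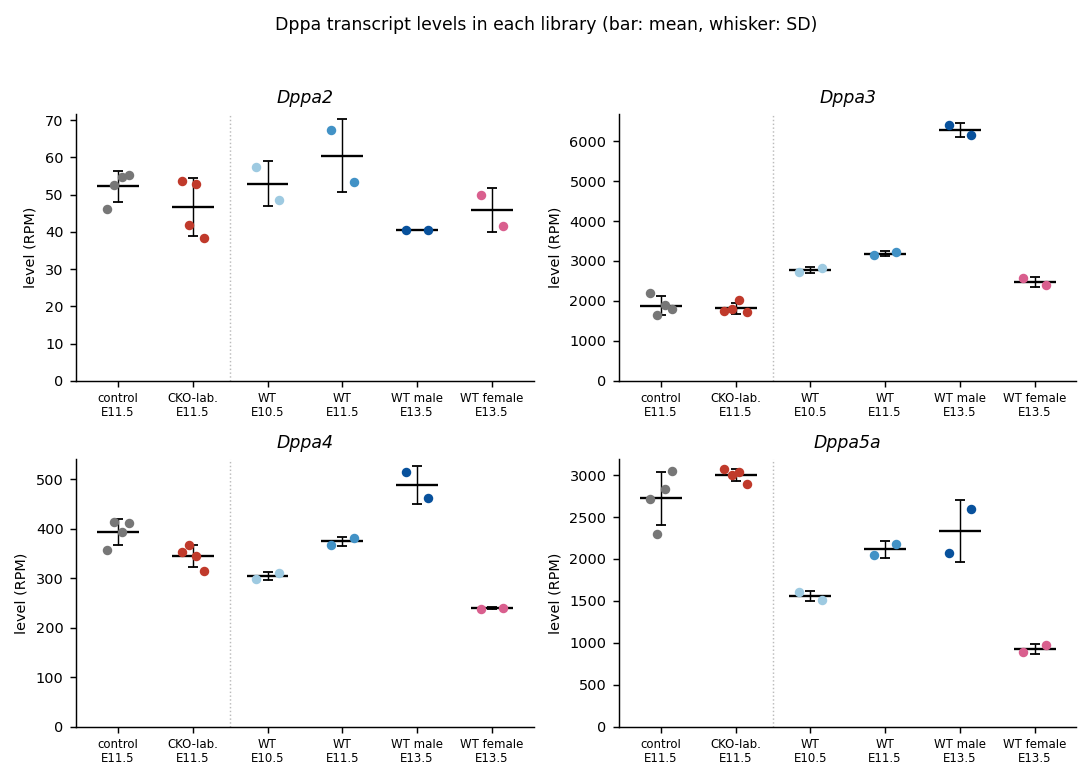
Levels of Dppa2, Dppa3, Dppa4 and Dppa5a in RPM (linear axes from 0), with 1 point per library; bars are group means and whiskers SD, over 4 libraries in the floxed groups and 2 in the wild-type (WT) groups, and a dotted line parts the separately normalized tables. Dppa3 stands at 6283 RPM in E13.5 males against 2478 RPM in E13.5 females, while the 2 floxed groups overlap in all 4 panels.

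The group means of Dppa3 were 2771 ± 75.2 RPM for E10.5 and 3186 ± 57.8 RPM at E11.5 (SD, n = 2 each). At E13.5 they were 6283 ± 168 RPM in males and 2478 ± 126 RPM in females (SD, n = 2 each). Changes are given below as log2 fold changes of RPM + 1 with their standard errors, from limma fitted over all genes with Benjamini-Hochberg adjustment, and a gene is called at an adjusted p below 0.05. The rise from E10.5 to E11.5, 0.20 ± 0.07, was not called (limma adjusted p = 0.108). From E11.5 to E13.5 males Dppa3 rose by 0.98 ± 0.07 (limma adjusted p = 1.29e-11), and from E11.5 to E13.5 females it fell by 0.36 ± 0.07 (limma adjusted p = 0.000148). Both changes use the same E11.5 libraries, whose labels give no sex, so no change within a sex was measured. Rises and falls in males or females, here and below, are differences of that E13.5 group from these libraries. The difference between females and males was −1.34 ± 0.07 (limma adjusted p = 1.32e-14), which places Dppa3 at percentile 3.65 of all log2 fold changes in that comparison.

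The fall of Dppa3 in females was still called with median-ratio scaling (−0.48, limma adjusted p = 1.32e-05) and quantile normalization (−0.19, limma adjusted p = 0.0214), and was not called without a mean-variance trend (limma adjusted p = 0.0604). Scaled to the ERCC spike-in RNAs instead, the female minus E11.5 value of Dppa3 was 0.14 (limma adjusted p = 0.638), in an analysis that also moved the median of all genes from 0.13 to 0.61. Relative to those medians Dppa3 stood at −0.49 with the deposited scaling and at −0.47 with the spike-ins. Spike-in scaling also widened the standard errors, for Dppa3 from 0.07 to 0.23 and for Dppa4 from 0.10 to 0.24. The ERCC share was 1.53% and 1.09% in the 2 female libraries. A call lost with the spike-ins, here and below, therefore does not show that a level was unchanged. The rise in males and the difference between the sexes were called under all 20 settings tried.

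In the floxed cells Dppa3 did not separate the groups. It read 2196, 1638, 1908 and 1790 RPM in the controls and 1734, 1804, 2019.7 and 1723 RPM in the CKO-labelled libraries. All 4 CKO-labelled values lay within the control range. The means were 1883 ± 236 and 1820.1 ± 138 RPM (SD, n = 4 each), with a log2 fold change of −0.04 ± 0.10 (limma adjusted p = 0.924) and a 95% interval from −0.26 to 0.17. The sign was not stable: without control replicate 1 the value was 0.03. The floxed E11.5 levels were below the 3145 and 3227 RPM of the wild-type E11.5 libraries, but the 2 tables were normalized separately and differ in strain, genotype, treatment and starting RNA, so no test was made.

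A list of 16 genes for the partners of DPPA3 and for DNA methylation was examined beside it. In the floxed comparison 11 were measured above the filter, and 2 rose while none fell, with a median log2 fold change of −0.03 against −0.01 for all genes tested. The share of all tested genes called there was 2.43% (228 of 9384). The 2 genes were Uhrf1 and Dnmt3a. Uhrf1, which encodes the DPPA3-bound cofactor of maintenance methylation, read 3.24 to 5.77 RPM in the controls and 8.82, 11.9, 10.6 and 21.4 RPM in the CKO-labelled libraries. The groups did not overlap, and the log2 fold change was 1.33 ± 0.28 (limma adjusted p = 0.0215). Its highest value was in CKO replicate 4, the library with the highest somatic marker sum. Its lowest CKO-labelled value, 8.82 RPM, was in CKO replicate 1, which had the next highest sum, 91.0 RPM. The part of somatic cells in the result was not tested. Dnmt3a, a de novo methyltransferase, rose from 28.1 ± 2.83 to 61.3 ± 11.1 RPM (SD, n = 4 each), by 1.09 ± 0.15 (limma adjusted p = 0.00079), again with its highest value in CKO replicate 4.

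Between E10.5 and E11.5 none of the 13 list genes measured in the wild-type cells was called by limma, 3 had an unadjusted p under 0.05, and the median was −0.12 against 0.02 for all genes. Median-ratio and quantile scaling also called none, and spike-in scaling called 1 lower. The 2 list genes with the highest levels were Trim28, a corepressor at imprinted and repeat sequences, and Xpo1, the nuclear export receptor that carries DPPA3 out of the nucleus. Trim28 read 1237 ± 5.55 RPM for E10.5 and 1217 ± 13.7 RPM at E11.5 (limma adjusted p = 0.905). Xpo1 read 375 ± 1.57 and 320 ± 14.6 RPM (limma adjusted p = 0.163; SD, n = 2 in each group).

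By E13.5 part of this list was called in each sex, where calls were also common among all tested genes. In males 7 of 13 rose and 2 fell, with a median of 0.56 against 0.11 for all genes, where 38.2% of all tested genes were called. In females 6 of 13 rose and 2 fell, with a median of 0.48 against 0.13, where 51.2% of all genes were called. The split depended on the scaling. In females it was 5 higher and 3 lower with median-ratio scaling. Quantile normalization gave 5 and 4 with a median of 0.19, and spike-in scaling 7 and 0. In males these 3 scalings gave 6 and 3, 6 and 3, and 4 and 0. Xpo1 rose to 443 ± 30.2 RPM in males and 505 ± 12.8 RPM in females. Ehmt1, an H3K9 methyltransferase, rose from 16.6 ± 1.53 RPM to 37.7 ± 6.99 and 48.8 ± 8.98 RPM (SD, n = 2 each). Its partner Ehmt2 rose from 92.3 RPM to 165 and 139 RPM, and Setdb1, another H3K9 methyltransferase, from 111 RPM to 163 and 157 RPM. Uhrf1 rose to 24.9 ± 3.11 RPM in males (limma adjusted p = 0.00453) and to 32.1 ± 3.95 RPM in females (limma adjusted p = 0.000285). Its 2 E11.5 libraries differed widely, at 17.5 and 5.41 RPM. Trim28 fell in females to 933.5 ± 36.6 RPM (limma adjusted p = 0.000221).

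Between the sexes 3 of the 13 list genes differed at E13.5, with 1 higher and 2 lower in females and a median of −0.03 against 0.05 for all genes. In that comparison 37.6% of all tested genes were called. Tet1, an oxidase of methylated cytosine, read 122 ± 7.08 RPM in males and 68.1 ± 8.77 RPM in females, a log2 fold change of −0.83 (limma adjusted p = 7.26e-05). Dnmt1, the maintenance methyltransferase, read 178 ± 4.71 RPM in males and 251 ± 15.5 RPM in females, a change of 0.49 (limma adjusted p = 0.000617). Trim28 was the other lower gene, by −0.35 (limma adjusted p = 0.000799). With spike-in scaling the sex split of the list was 2 higher and 0 lower and its median 0.37.

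Dppa4 followed the same order as Dppa3, with males highest and females lowest, but over a narrower range. It read 299 and 311 RPM for E10.5, 368 and 381 RPM for E11.5, 515 and 462 RPM in E13.5 males, and 238 and 241 RPM in E13.5 females. No neighbouring groups in this order overlapped. Of all tested genes 46.2% did not overlap between E10.5 and E11.5, and 66.2% between E11.5 and males. No such share was computed for E10.5 against females. The means were 305 ± 8.41, 375 ± 8.87, 489 ± 37.7 and 239 ± 1.65 RPM (SD, n = 2 each). The rise of 0.29 ± 0.10 from E10.5 to E11.5 was not called (limma adjusted p = 0.0737). Dppa4 then rose by 0.38 ± 0.10 in males (limma adjusted p = 0.00243) and fell by 0.64 ± 0.10 in females (limma adjusted p = 3.21e-06). Females minus males was −1.02 ± 0.10 (limma adjusted p = 1.82e-09), a difference called under all 20 settings. The male rise lost its call with spike-in scaling (0.47, limma adjusted p = 0.154) and without a mean-variance trend (limma adjusted p = 0.0739). The female fall lost its call with spike-in scaling (−0.14, limma adjusted p = 0.642).

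Dppa2, the partner of DPPA4 and its chromosomal neighbour, took another course and was lowest in males. It read 57.3 and 48.7 RPM for E10.5, 67.3 and 53.5 RPM for E11.5, 40.4 and 40.5 RPM in E13.5 males, and 50.0 and 41.7 RPM in E13.5 females. E11.5 overlapped E10.5 and E10.5 overlapped females, while the male values lay 1.17 RPM below the lower female value. Of all tested genes 71.1% did not overlap between the sexes. The means were 53.0 ± 6.13, 60.4 ± 9.77, 40.5 ± 0.0607 and 45.8 ± 5.87 RPM (SD, n = 2 each). From E11.5 to E13.5 males Dppa2 fell by 0.56 ± 0.18 (limma adjusted p = 0.0148). This call was lost with spike-in scaling (−0.47, limma adjusted p = 0.262), without a trend (limma adjusted p = 0.0577), and without E11.5 replicate 1 (−0.40, limma adjusted p = 0.144), male replicate 1 (limma adjusted p = 0.0687) or male replicate 2 (limma adjusted p = 0.07).

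The other wild-type comparisons of Dppa2 were not called. From E10.5 to E11.5 the value was 0.18 ± 0.18 (limma adjusted p = 0.627), and from E11.5 to females −0.39 ± 0.18 (limma adjusted p = 0.0718). The latter was called with median-ratio scaling (−0.50, limma adjusted p = 0.0194) and with quantile normalization (−0.54, limma adjusted p = 0.0131), and its sign turned with spike-in scaling (0.10, limma adjusted p = 0.788). Females minus males gave 0.17 ± 0.18 (limma adjusted p = 0.488), with a 95% interval from −0.20 to 0.54. The intervals of Dppa3, Dppa4 and Dppa5a in that comparison all ended below −0.82.

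The balance of the pair can be read within each library as log2(RPM + 1) of Dppa2 minus that of Dppa4, which is a difference between 2 genes and not a comparison of their levels per length. It averaged −2.51 ± 0.20 at E10.5, −2.62 ± 0.26 at E11.5, −3.56 ± 0.11 in E13.5 males and −2.37 ± 0.19 in E13.5 females (SD, n = 2 each). The male libraries thus lay apart from the 6 others, at −3.64 and −3.48 against −2.81 to −2.23. No test was made with 2 libraries in a group, where an exact permutation test cannot pass 0.05. Dppa3 minus Dppa5a, read the same way, averaged 0.59 ± 0.04 at E11.5, 1.44 ± 0.27 in males and 1.42 ± 0.16 in females (SD, n = 2 each), so that both sexes stood above E11.5 by like amounts while the levels of both genes differed between the sexes.

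**Figure D2:**
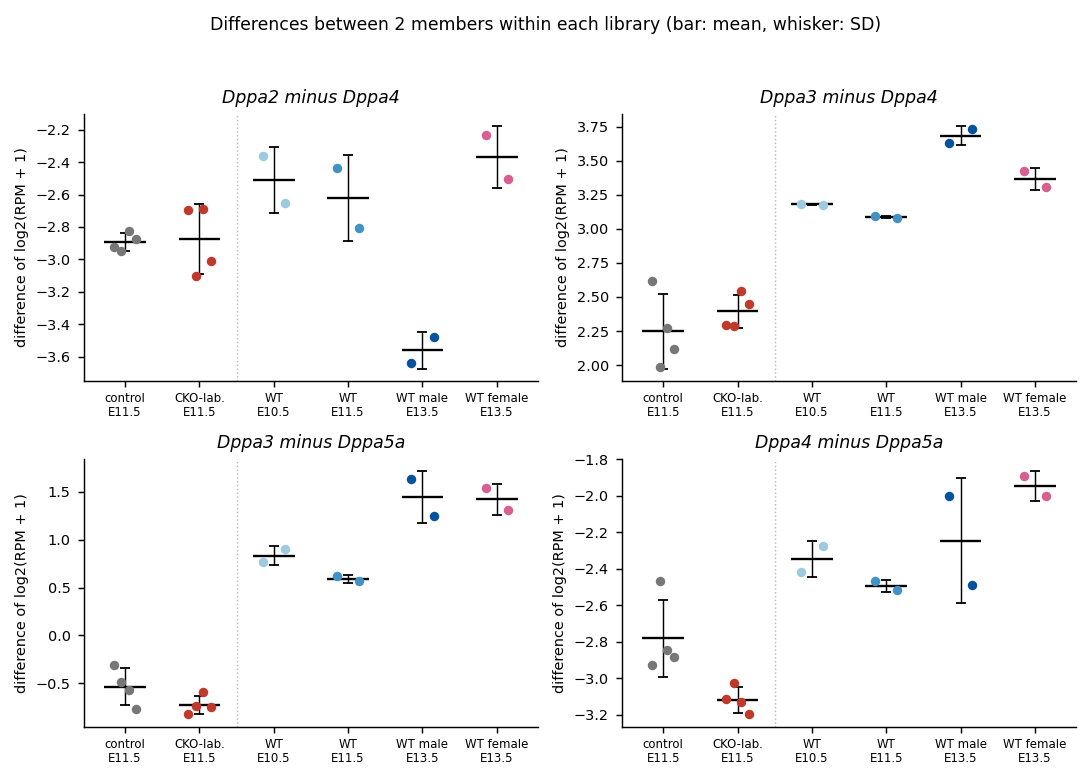
Within-library differences of log2(RPM + 1) between pairs of the 4 genes, with 1 point per library; bars are group means and whiskers SD (n = 4 in floxed groups, n = 2 in wild-type groups). The Dppa2 minus Dppa4 values of the E13.5 males, mean −3.56, lie below all other libraries, and the Dppa4 minus Dppa5a values of the 2 floxed groups, means −2.78 and −3.12, do not overlap.

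In the floxed cells Dppa2 read 46.2, 52.7, 54.7 and 55.4 RPM in the controls, and 53.6, 41.9, 52.8 and 38.2 RPM under the CKO label. The groups overlapped, with means of 52.2 ± 4.18 and 46.7 ± 7.74 RPM (SD, n = 4 each) and a log2 fold change of −0.17 ± 0.14 (limma adjusted p = 0.713; 95% interval −0.47 to 0.13). Dppa4 read 357, 413, 393 and 412 RPM in the controls, and 353, 368, 346 and 315 RPM under the CKO label. Only the lowest control, replicate 1, lay within the CKO-labelled range. The means were 394 ± 26.4 and 345 ± 22.6 RPM (SD, n = 4 each), and the log2 fold change of −0.19 ± 0.09 was not called (limma adjusted p = 0.41, unadjusted p = 0.0486). The lowest value of both Dppa2 and Dppa4 was in CKO replicate 4, the library with the highest somatic marker sum. Without that library the log2 fold changes were −0.08 for Dppa2 and −0.14 for Dppa4. Without control replicate 1 they were −0.23 and −0.24, and without both libraries −0.14 and −0.19. CKO replicate 1, with the next highest somatic marker sum, 91.0 RPM, had the highest CKO-labelled value of Dppa2.

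The genes that depend on DPPA2 and DPPA4 in embryonic stem cells gave almost no signal. Of 21 listed genes, among them Dux, the Zscan4 cluster, Zfp352 and the Tcstv, Usp17l and Tdpoz families, 13 have a row. None passed the filter in either table, so that none was tested. In all floxed libraries 8 of the 13 were at 0, and in all wild-type libraries 10 were. A count of 0 allows up to 0.596 to 2.02 RPM (3 reads) depending on the library. These genes belong to families of near-identical copies, whose reads the counting could have split or dropped.

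Starts of genes, here and below, are their lowest coordinates, whichever strand they lie on. Of the genes that start within 500 kb of Dppa2 or Dppa4, 3 of 10 have a row and 1 reached 5 RPM in any group. This was Morc1, a germline gene for the silencing of transposable elements in the male, which starts 121 kb from the start of Dppa2. Morc1 averaged 127 RPM for E10.5, 73.3 RPM for E11.5, 30.9 RPM in E13.5 males and 21.8 RPM in E13.5 females. It fell at each step, by 0.78 to E11.5 (limma adjusted p = 0.00882), by 1.23 from there to males (limma adjusted p = 2.71e-06) and by 1.71 to females (limma adjusted p = 7.94e-09). In floxed cells its control mean was 101 RPM and its CKO-labelled mean 137 RPM (limma adjusted p = 0.164).

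Dppa5a rose from E10.5 to E11.5 and then fell in females to below the E10.5 level. It read 1601 and 1511 RPM for E10.5, 2044 and 2183 RPM for E11.5, 2068 and 2597 RPM in E13.5 males, and 886 and 968 RPM in E13.5 females. Males and E11.5 overlapped, and both lay above E10.5, which lay above females. Of all tested genes 46.2% did not overlap between E10.5 and E11.5. The means were 1556 ± 63.4, 2114 ± 98.4, 2332 ± 374 and 927 ± 57.7 RPM (SD, n = 2 each).

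The rise of Dppa5a to E11.5, by 0.44 ± 0.09 (limma adjusted p = 0.00359), was the only member change called between these stages, at which 4.28% of all tested genes were called. It depended on the scaling and on the E10.5 libraries: with spike-ins it was 0.01 (limma adjusted p = 0.979), without a filter and without a trend it lost its call, and it did so without either E10.5 library (limma adjusted p = 0.0606 and 0.106). From E11.5 to males the change of 0.13 ± 0.09 was not called (limma adjusted p = 0.25), and its 2 male libraries pulled apart. Without male replicate 1 it was 0.30 and called (limma adjusted p = 0.0274), and without male replicate 2 it was −0.03. From E11.5 to females Dppa5a fell by 1.19 ± 0.09 (limma adjusted p = 1.81e-11), which was called under all 20 settings. Females minus males was −1.32 ± 0.09 (limma adjusted p = 2.15e-12), also called under all 20.

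Pigp, the coding gene that shares a stretch with Dppa5a and has a row, read 272 and 316 RPM for E10.5 and 392 and 433 RPM for E11.5. At E13.5 it read 389 and 520 RPM in males, and 326 RPM in both female libraries. Males and E11.5 had the highest means, as for Dppa5a, but females lay above E10.5. Pigp rose by 0.49 from E10.5 to E11.5 (limma adjusted p = 0.00997) and was lower in females than in males by −0.46 (limma adjusted p = 0.00166). Whether the rows exchange reads was not tested.

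In floxed cells Dppa5a read 2719.5, 2294, 2832 and 3048 RPM in the controls, and 3067, 3004, 3041 and 2896 RPM under the CKO label. The highest control lay within the CKO-labelled range and the other 3 below it. The means were 2723 ± 317 and 3002 ± 75.6 RPM (SD, n = 4 each), with a log2 fold change of 0.15 ± 0.09 (limma adjusted p = 0.592; 95% interval −0.05 to 0.35).

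Of 9 KH-domain relatives of Dppa5a and members of their maternal complex, 8 have a row and 4 passed the filter in each table. In floxed cells 1 of 4 fell and none rose, where 2.43% of all tested genes were called, with a median of −0.36 against −0.01 for all genes. This was Khdc1a, a KH-domain gene of the early embryo, at 56.5 ± 6.18 RPM in the control group against 32.5 ± 8.03 RPM in the CKO-labelled group (SD, n = 4 each), a change of −0.80 ± 0.17 (limma adjusted p = 0.0221). The lowest CKO-labelled value, 23.2 RPM, was again in CKO replicate 4, and the highest, 42.3 RPM, in CKO replicate 1. In wild-type cells Khdc1a rose from 25.7 ± 1.95 RPM at E10.5 to 41.9 ± 1.15 RPM at E11.5 (0.69, limma adjusted p = 0.0433). That was the only call among the 4 there, and median-ratio, quantile and spike-in scaling did not give it.

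At E13.5 in males 1 of these 4 rose and 1 fell, where 38.2% of all tested genes were called, with a median of 0.20 against 0.11 for all genes. In females none rose and 2 fell, where 51.2% were called, with a median of −0.36 against 0.13. Between the sexes 1 was higher and 1 lower in females, where 37.6% were called, with a median of −0.17 against 0.05. A count of 2 of 4 is near these shares. The 2 genes were Ooep and Tle6, both of the subcortical maternal complex of the egg. Ooep read 47.0 ± 0.761 RPM for E11.5, 106 ± 7.9 RPM in males and 32.1 ± 6.12 RPM in females (SD, n = 2 each). It rose by 1.16 in males (limma adjusted p = 5.92e-06) and fell by 0.55 in females (limma adjusted p = 0.0106). Tle6 fell from 37.8 ± 1.85 RPM to 3.93 ± 0.58 RPM in males and 21.1 ± 5.86 RPM in females, and was higher in females by 2.14 (limma adjusted p = 3.2e-07). With spike-in scaling neither female fall was called and the female median was 0.13.

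Ooep is also the nearest expressed neighbour of Dppa5a, with its lowest coordinate 9.9 kb from that of Dppa5a. Within 500 kb of the Dppa5a start 11 genes reached 5 RPM in some group. Of the others, Ddx43, a germ cell RNA helicase 28.7 kb away, rose from 1.09 RPM at E10.5 to 5.02 RPM at E11.5 (limma adjusted p = 0.0139) and to 25.0 RPM in males and 17.6 RPM in females. Gcm1, a transcription factor of the placenta, fell from 10.6 RPM at E11.5 to 0.871 RPM in males and 4.05 RPM in females, and Gsta4, a glutathione transferase, fell in males from 62.3 to 27.1 RPM. Eef1a1, the translation elongation factor, was lower at E11.5 than at E10.5 by −0.26 (limma adjusted p = 0.0301), and its later changes were not called.

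**Figure D3:**
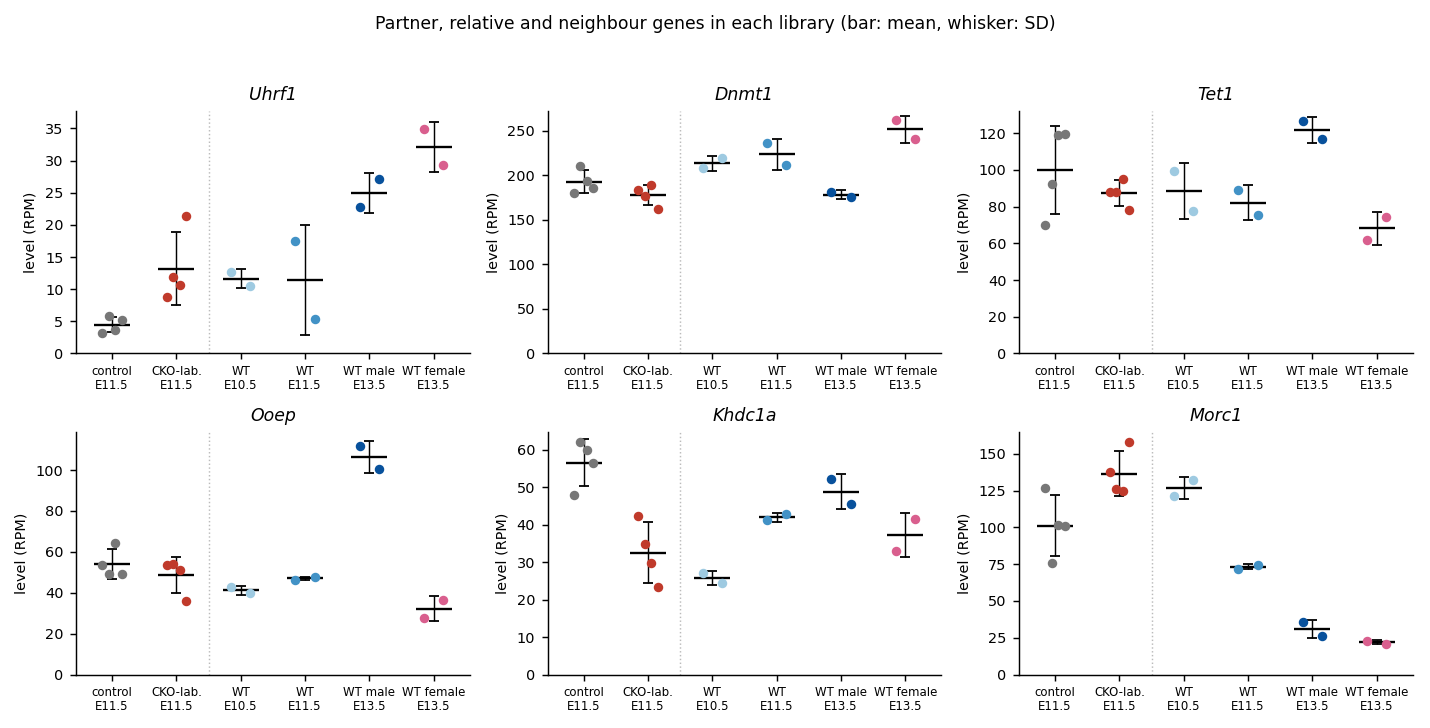
Levels in RPM of Uhrf1, Dnmt1, Tet1, Ooep, Khdc1a and Morc1 (linear axes from 0), with 1 point per library; bars are group means and whiskers SD (n = 4 floxed, n = 2 wild type), and a dotted line parts the separately normalized tables. Ooep stands at 106 RPM in E13.5 males against 32.1 RPM in females, and Uhrf1 is higher in the 4 CKO-labelled libraries than in the 4 controls.

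Dppa3 lies in a cluster of pluripotency genes. Within 500 kb of its start 11 genes, not all of them pluripotency genes, reached 5 RPM. Gdf3, a growth factor gene that starts 21.0 kb away, averaged 255 RPM for E11.5, 174 RPM in males and 112 RPM in females. Nanog, the pluripotency factor 81.1 kb away, averaged 142, 82.4 and 52.7 RPM in the same groups and fell in both sexes (limma adjusted p = 6.49e-05 and 3.21e-09). Slc2a3, a glucose transporter gene 101 kb away, fell from 341 RPM at E10.5 to 198 RPM at E11.5, then to 76.9 RPM in males and 85.2 RPM in females. Phc1, a Polycomb gene 309 kb away on the other side, had 210 RPM for E11.5, 297 RPM in males and 150 RPM in females, and differed between the sexes by −0.98 (limma adjusted p = 6.23e-08). M6pr, a mannose-6-phosphate receptor gene beside it, was also higher in males (251 RPM) than in females (141 RPM). Between the floxed groups these 5 genes had limma adjusted p-values of 0.324 or more.

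For the floxed comparison as a whole, none of the 4 genes was called by limma at an adjusted p below 0.05, against 2.43% of all genes tested (1.93% higher and 0.501% lower), and the groups overlapped for all 4, where 8.19% of all genes did not overlap. Dppa4 alone had an unadjusted p under 0.05, and none of the 4 was called under the other 19 settings, the voom fit included. The 4 genes together summed to 5052 ± 440 RPM over the controls, against 5214 ± 200 RPM over the CKO-labelled group (SD, n = 4 each).

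**Figure D4:**
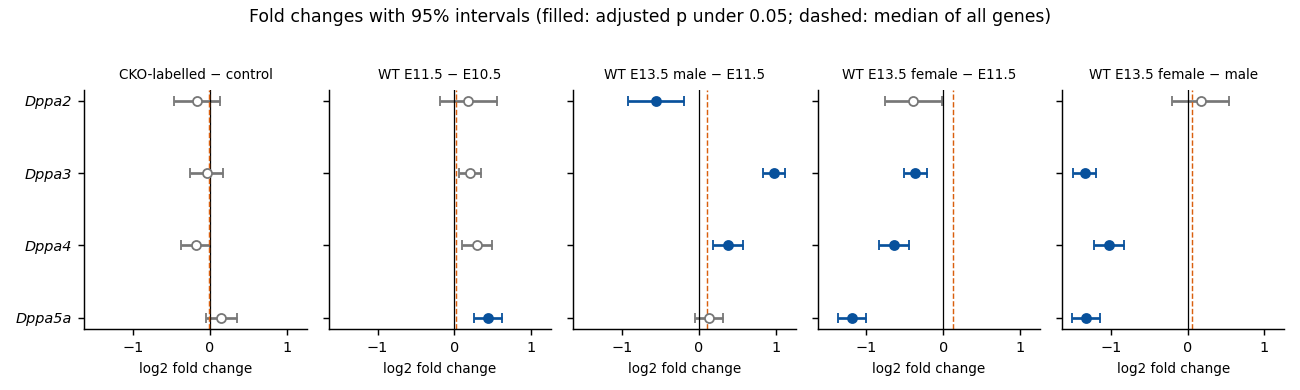
Log2 fold changes of the 4 genes in the 5 comparisons with 95% intervals from limma, on a linear axis with 0 marked; filled points are called, and a dashed line is the median of all genes. All 4 floxed values lie between −0.19 and 0.15, and in females minus males Dppa3, Dppa4 and Dppa5a lie between −1.34 and −1.02 while the interval of Dppa2 holds 0.

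Differences between members within a library do not depend on the scaling of whole libraries, and all 6 pairs were compared between the floxed groups. Dppa4 minus Dppa5a averaged −2.78 ± 0.21 over the controls and −3.12 ± 0.07 over the CKO-labelled group (SD, n = 4 each), and the groups did not overlap. The difference of −0.34 had the smallest p that an exact two-sided permutation test of 4 against 4 can give, 0.0286, which became 0.171 after adjustment over the 6 pairs. Dppa2 minus Dppa5a differed by −0.32 (exact permutation p = 0.0857, adjusted 0.257). The other 4 pairs differed by −0.19 to 0.15, with adjusted exact permutation p of 0.286 to 0.914. No pair passed the threshold. After adjustment over 6 pairs, 1 pair alone at the smallest possible p of 0.0286 cannot pass it. The adjusted values therefore do not decide whether Dppa4 minus Dppa5a differed between the floxed groups.

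From E10.5 to E11.5, 1 of the 4 genes was called and it was higher, where 2.31% of all tested genes were called higher and 1.97% lower. In E13.5 females against males 3 of the 4 genes were called and all 3 were lower, where 16.4% of all tested genes were called lower and 21.2% higher. From E11.5 to males 2 of the 4 were called higher, against 22.3% of all genes, and Dppa2 was called lower, against 15.9%. From E11.5 to females 3 were called lower, against 20% of all genes, and none higher, against 31.2%. Together the 4 genes held 0.469% of gene reads at E10.5, 0.573% at E11.5, 0.914% in E13.5 males and 0.369% in E13.5 females, most of it from Dppa3 and Dppa5a.

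**Figure D5:**
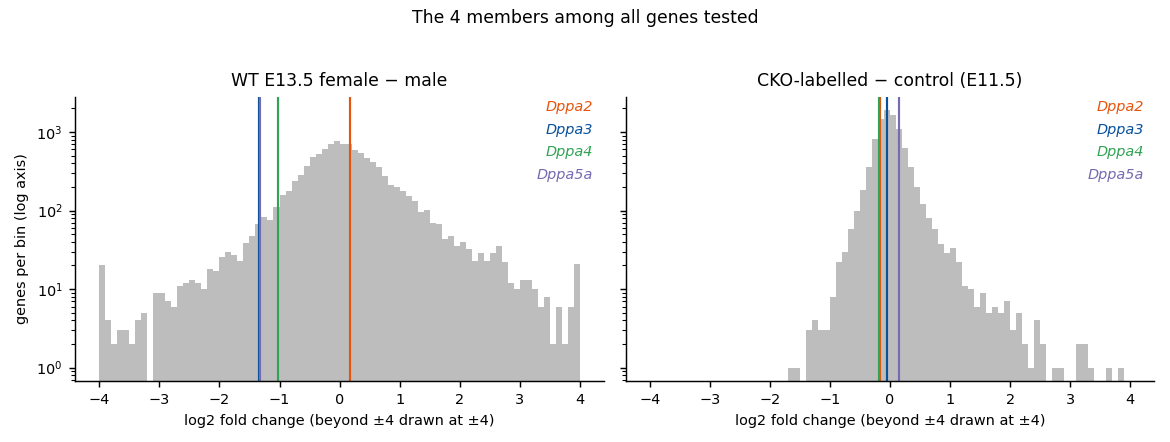
Log2 fold changes of all 10749 wild-type genes tested (bars, count on a log axis, with values beyond ±4 drawn at ±4) for females minus males at E13.5 (left), and of all 9384 floxed genes for CKO-labelled minus control libraries (right), with the 4 members as vertical lines. In females minus males the Dppa3 and Dppa5a lines nearly coincide at −1.34 and −1.32, and Dppa2 at 0.17 lies near the middle of the distribution.

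A list of 27 pluripotency-associated genes, of which 22 passed the filter, was set beside the members. From E10.5 to E11.5 1 rose and 1 fell, where 4.28% of all tested genes were called, with a median of −0.06 against 0.02 for all genes. From E11.5 to males none rose and 13 fell, where 22.3% of all genes were called higher and 15.9% lower, with a median of −0.53 against 0.11. To females 2 rose and 16 fell, where 31.2% were called higher and 20% lower, with a median of −0.98 against 0.13. Among those that fell in both sexes was Pou5f1, the core pluripotency factor, from 748 RPM at E11.5 to 528 and 375 RPM. Tfap2c, a germ cell specification factor, fell from 186 ± 15.2 RPM to 30.0 ± 8.57 RPM in males and less in females, to 107 ± 11.2 RPM (SD, n = 2 each). Between the sexes 6 of 22 were higher and 10 lower in females (median −0.21 against 0.05 for all genes, or 0.20 with spike-in scaling), where 21.2% of all genes were called higher and 16.4% lower.

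Utf1, a chromatin factor of pluripotent cells, had 981 ± 21 RPM for E11.5, 862 ± 70.2 RPM in males and 376 ± 12.4 RPM in females (SD, n = 2 each). Females were lower than males by −1.19 (limma adjusted p = 1.14e-11). L1td1, an RNA-binding protein gene, was lower in females by −1.55, and Tcl1, an AKT coactivator, by −1.18. Tdgf1, a NODAL coreceptor, was at 0 in both female libraries and averaged 17.2 RPM in males. Calcoco2, an autophagy receptor, was higher in females, at 46.9 against 1.56 RPM. In the floxed cells 2 of the 22 rose and 1 fell, where 2.43% of all genes were called (median −0.09 against −0.01): Tdgf1 from 18.6 ± 1.37 to 58.7 ± 10.8 RPM, Klf4 from 1.73 ± 0.443 to 10.4 ± 0.56 RPM and Calcoco2 from 14.5 ± 3.09 down to 6.68 ± 1.59 RPM (SD, n = 4 each).

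Of the 8403 genes that averaged 10 RPM or more, those with Gm, LOC, Rik or clone-type names were skipped. The rest were ranked by Pearson's r of log2(RPM + 1) over the 8 wild-type libraries, to give the genes most like each member. These are descriptions over 4 groups of 2 libraries. For Dppa3 they were Etv1 (r = 0.989), Cthrc1, Notch3, Maf1 and Pdlim3, and Etv1 averaged 50.0 RPM in males and 2.07 RPM in females. For Dppa4 they were Cpsf4l (r = 0.989), Grlf1, Tmem63a, Lefty1 and Cyb5r1. Lefty1, an inhibitor of NODAL signalling, averaged 17.5 RPM for E10.5, 44.9 RPM for E11.5, 309.9 RPM in males and 0.966 RPM in females. For Dppa5a they were Rabggtb (r = 0.994), Dmwd, Mtmr14, Uqcrq and Poldip3, and Rabggtb, a subunit of an enzyme that attaches lipids to Rab proteins, averaged 100.1, 139.9, 147 and 56.9 RPM in the same order. For Dppa2 the values were lower, from 0.931 to 0.945, and the genes were Atp5d, Gtf3c5, St6galnac2, Cdkn2aipnl and Lrwd1.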

How the data were processed

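RNA was sequenced as 3′ tags from germ cells, with 8 floxed and 8 wild-type libraries. Per the labels' protocols the wild-type libraries were amplified from 1 ng of RNA (not stated for the floxed libraries, made from bulk RNA). The RPM values were deposited by the authors and are not divided by length: gene rows sum to about 1000000 RPM in each library, and the 92 ERCC spike-in rows of the wild-type table (1.09% to 1.89%) come in addition. The submitters' processing notes name cutadapt 1.3, TopHat 1.4.1, Cufflinks 2.2.0 and mm10. Read depth was taken from the RPM step of 1 read, of which 99.6% to 99.8% of values were whole multiples (within 0.05 reads).

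Genes that reached 5 RPM in 4 or more floxed, or 2 or more wild-type, libraries were tested with limma 3.58.1 (R 4.3.3) on log2(RPM + 1), with a mean-variance trend, within each table, and the 4 wild-type groups shared 1 fit. A pseudocount of 1 understates the change of low genes. Differences between members within a library were compared by exact permutation. The script was checked on simulated data.

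The members, the gene lists and the rules were chosen with earlier results of these data known, so a direction already seen there is not independent evidence here. Named were all members and the 5 genes most like each member, apart from genes with Gm, LOC, Rik or clone-type names. Further names came from neighbours within 500 kb that reach 5 RPM, and from up to 6 called genes per list and comparison (else the 2 with the highest level). Of these neighbours and list genes only a part is named, and the rest can differ from those shown. Positions are those of RefSeq (GRCm38.p6), and exon counts and the copy search are from GENCODE M21. Alternatives changed the pseudocount, filter, scaling, weights, trend, test and libraries. Pou5f1, Lefty1, Etv1 and Rabggtb were picked for their values from the named sets.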

Additional observations from a re-analysis of the deposited data

Results flagged for a closer look

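The step from the shared E11.5 libraries, of unstated sex, to E13.5 differed between females and males for 3 of the 4 genes. With these libraries shared, the test of that difference equals the comparison of the sexes at E13.5 and adds nothing to it. For Dppa3 the female change minus the male change was −1.342 on the log2 scale (limma adjusted p = 1.32e-14), with males above E11.5 and females below it. For Dppa5a it was −1.323 (limma adjusted p = 2.15e-12), and for Dppa4 it was −1.024 (limma adjusted p = 1.82e-09). In each case both female libraries lay below both male libraries, where 71.1% of all tested genes did not overlap between the sexes. The share of all tested genes called by limma in either direction was 37.6%. No single library stood apart from its group in any of 20 checks of the floxed groups, where chance would flag about 1 in 20.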

How the results depend on the processing

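Among the refits of the members, 367 kept their direction and their side of the threshold, 14 lost a call, 6 gained one and 9 changed sign. The 367 include values called in neither fit. Many refits, such as another filter or the loss of a library outside the comparison, leave the estimate as it was and change only its error or adjustment. Dppa3, Dppa4 and Dppa5a kept their call between the sexes under all 20 alternatives, as did Dppa3 in males and Dppa5a in females against E11.5. No member was called between the floxed groups under any of 19. Spike-in scaling moved the median of all genes to −0.39 (E11.5 minus E10.5), 0.19 (males), 0.61 (females minus E11.5) and 0.45 (females minus males). It turned the E11.5 minus E10.5 values of Dppa2, Dppa3 and Dppa4 to −0.24, −0.23 and −0.13 and left Dppa5a at 0.013. For females minus E11.5 it gave Dppa2 0.10, Dppa3 0.14 and Dppa4 −0.14, and for males minus E11.5 it gave Dppa2 −0.47, Dppa4 0.47 and 2354 called genes. Higher and lower calls in the main fit were 248 and 212, 2392 and 1713, 3354 and 2148, and 2280 and 1758 in the wild-type order of comparisons. With spike-ins they were 28 and 509, 1524 and 830, 4729 and 574, and 3260 and 473. With median-ratio scaling the first was 212 and 280, and the third 2819 and 2616. Quantile normalization gave 2732 and 2732 in the third.

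Called genes numbered 139 of the floxed set with a filter of 20 RPM (228 before), and for E11.5 minus E10.5 146 without a filter, 27 without a trend and 279 with array weights (460 before). Dppa5a, at 0.44 there, was not called without a filter or a trend. Without a trend Dppa2 (−0.56) and Dppa4 (0.38) in males and Dppa3 (−0.36) in females were not called. Voom called Dppa3 at 0.20 for E11.5 minus E10.5, quantile normalization called Dppa5a at 0.25 in males, and Dppa2 in females was called at −0.50 (median-ratio) and −0.54 (quantile). Floxed Dppa3 was 0.0059 with array weights. The causes were not tested.

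Leaving out libraries gave 137 (without CKO replicate 2) to 211 called floxed genes, 105 (without E10.5 replicate 1) to 486 for E11.5 minus E10.5, where 167 remained without E10.5 replicate 2, and 2708 to 4433 between the sexes. Floxed Dppa3 ranged from −0.11 to 0.058, the latter without control replicate 1 and CKO replicate 4. Dppa5a ranged from 0.39 to 0.49 for E11.5 minus E10.5 and from −0.031 to 0.30 in males. Dppa2 ranged from −0.72 to −0.40 in males and from −0.55 (called, without E11.5 replicate 2) to −0.23 in females. The floxed Dppa2 minus Dppa4 difference ranged from −0.044 to 0.094. A lone remaining library was assumed to vary like the other groups.

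Replicate numbers were not taken to pair the samples, since not every same-numbered pair correlated above 0.1: 3 of 4 floxed pairs did, at up to 0.25 with the lowest at 0.02, and 0 of 12 wild-type pairs did. In the floxed table a pairing remains possible, although control replicate 2 correlated best with CKO replicate 3. A replicate block changed no member's call, and gave 314, 559, 4160, 5563 and 4099 called genes in the 5 comparisons. The planned edgeR count test was not run, because some values are not whole reads, and voom on rounded reads was added after seeing the data, as were spike-in scaling and the within-library pairs without 2 libraries. Depth limits Dppa2 most, at 100 to 265 reads per library.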

Other observations

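Dppa1, a further gene with this name, has a row that stood at 0 in all 16 libraries, which allows up to 0.596 to 2.02 RPM (3 reads) by library and covers counting error only. Rimklb, an N-acetylaspartylglutamate synthetase gene near Dppa3, rose by E13.5 in both sexes, from 90.4 RPM at E11.5 to 148 RPM in males and 171 RPM in females. Fbxo9, an F-box gene near Dppa5a, averaged 17.2 RPM at E11.5, 25.2 RPM in males and 45.4 RPM in females, and was higher in females than in males by 0.83 (limma adjusted p = 0.00692).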
